A study of Mus musculus with 6 samples.

Results

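The Rab genes encode the largest branch of the Ras superfamily of small GTPases. They were taken as the rows of the gene count table whose symbol is Rab followed by digits and, for some, a letter, whatever their values. This gave 57 of 24062 gene rows, and 53 of them had enough counts to be tested. Their transcripts were measured by RNA-seq in retinas of rd10 mice and of WT mice (C57Bl6/J) at postnatal day 30. The rd10 mouse has a missense allele of Pde6b, the gene of the beta subunit of the rod phosphodiesterase, in all its cells, and its rods degenerate. Both groups held 3 libraries, each from 2 frozen retinas, and the labels give no treatment. The title of the study asks about YAP and TEAD in reactive Müller cells.

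Rab proteins cycle between a GDP-bound form, held in the cytosol by a GDP dissociation inhibitor, and a GTP-bound form on a membrane, where they recruit motors, tethers and fusion factors. Exchange factors switch a Rab on, GTPase-activating proteins switch it off, and effectors bind the active form. In photoreceptors, Rab8 and Rab11 are known for the transport of rhodopsin to the outer segment, Rab3 for synaptic vesicle release, and RAB28 for its mutations in human cone-rod dystrophy.

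The libraries held between 10923556 and 12171088 counts in rd10 and between 13573035 and 15818918 in WT. CPM values are counts per 1e+06 of the library size scaled by TMM, which limits the pull of a few abundant genes. All 18 genes of a rod marker list fell in rd10, by log2 fold changes from -2.56 to -0.77, and all 15 genes of a microglia and macrophage list rose. In bulk retina, fewer cells of a type and less RNA per cell cannot be told apart. Nothing in the labels tells whether replicate samples are different animals, and the p-values rest on the spread among the samples, which may be technical. Libraries of 1 group also differed in how their counts followed transcript GC content, which is described below for the Rab genes.

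In rd10 retinas, 4 of 53 Rab genes rose (Rab32, Rab19, Rab31 and Rab3d) and 3 fell (Rab28, Rab43 and Rab30) by edgeR's quasi-likelihood test, with Benjamini-Hochberg adjustment over all genes and a threshold of 0.05. Of all 13905 genes tested, 14.4% were called, 7.12% higher and 7.32% lower in rd10, and the 13.2% called among the Rab genes is close to that share. The libraries of the groups did not overlap for 19 Rab genes, 12 higher and 7 lower in rd10, where 35.7% of all tested genes did not overlap. The median log2 fold change was 0.077 over the 53 Rab genes and -0.037 over all tested genes. The summed level of the family was 4370.2 ± 153 CPM in rd10 and 4374.8 ± 153 CPM in WT (SD, n = 3 libraries each). The fitted difference was under 0.25 on the log2 scale, in either direction, for 35 of the 53. The balance of directions moved with the scaling, for the Rab genes as for all genes. Library size alone gave 13 Rab genes higher and 1 lower. Over all genes it called 3043, of which 81.2% were higher. Inner neuron scaling, set on bipolar, amacrine and ganglion cell lists, gave 4 Rab genes higher and 6 lower. Over all genes that scaling called 3153, of which 20.8% were higher. Rab17, Rab25, Rab42 and Rab44 had too few counts for the test.

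**Figure D1:**
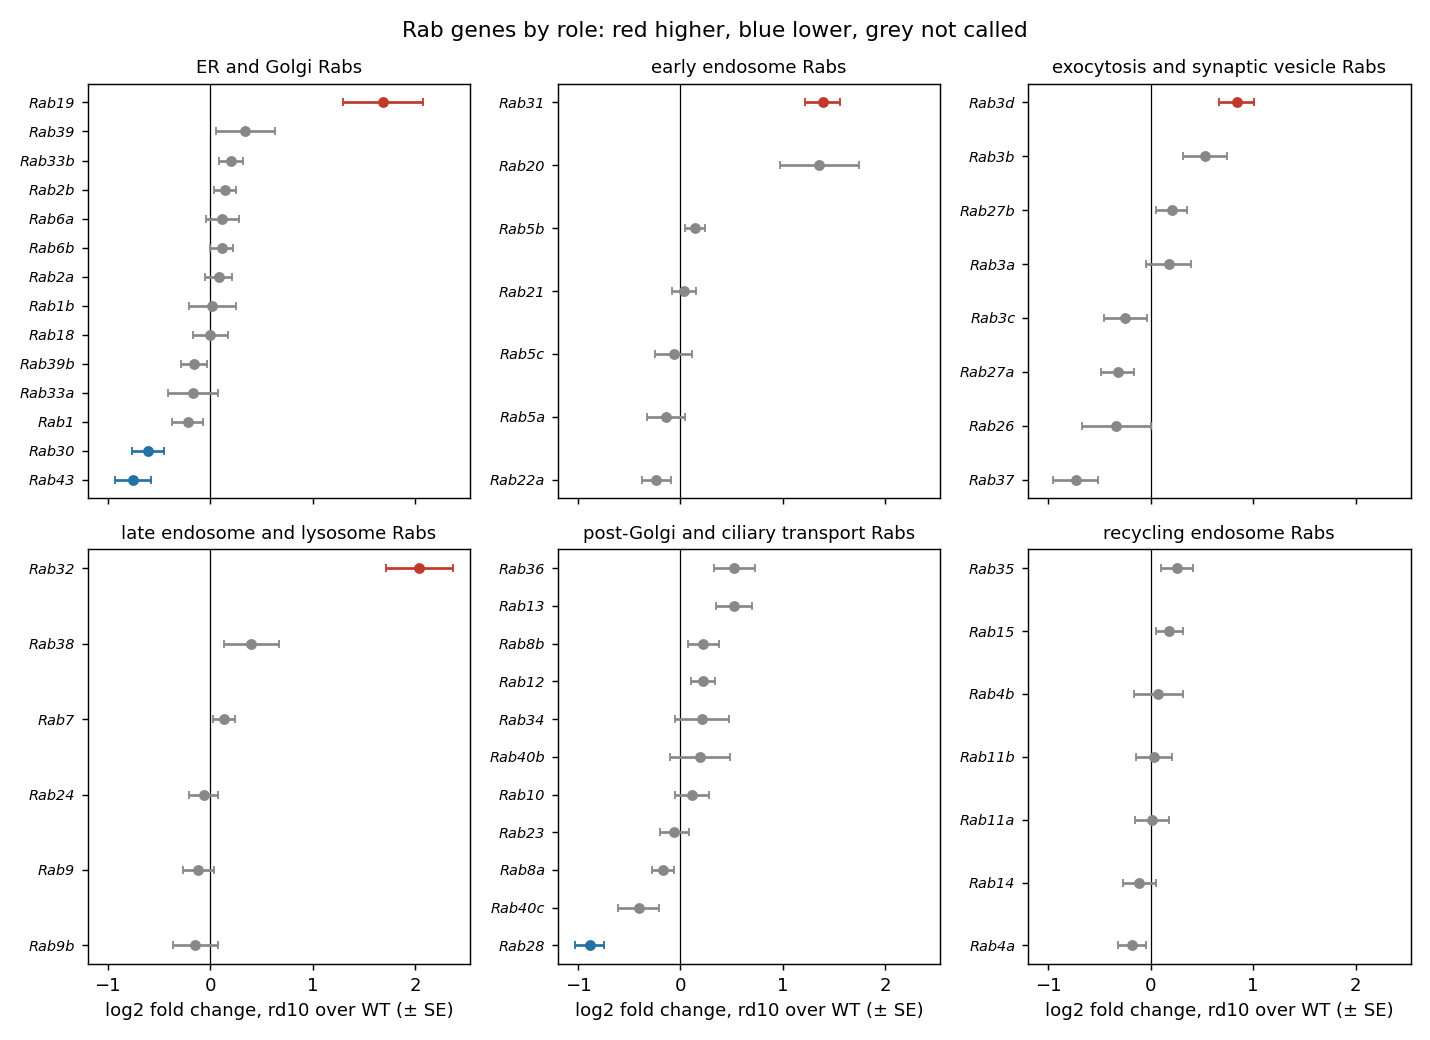
Log2 fold change of rd10 over WT with its standard error (x axis) for the 53 tested Rab genes (y axis), in 6 panels by role. Rab32, Rab19, Rab31 and Rab3d, coloured as higher, lie right of 0 and Rab28, Rab43 and Rab30, coloured as lower, lie left of it, while the recycling endosome panel holds no called gene.

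Levels of different Rab genes were compared per length, as RPKM over the union of each gene's exons. Rab3a, the main Rab of synaptic vesicles, was highest in both groups, with 181 ± 31.8 RPKM in rd10 and 160 ± 46.8 RPKM in WT. Next came Rab2a, which acts between the endoplasmic reticulum and Golgi, with 103 ± 9.91 RPKM in rd10 and 96.95 ± 11.02 RPKM in WT. Rab6b, the neuronal Rab6 of Golgi transport, had 90.9 ± 8.24 RPKM in rd10 and 84.2 ± 3.59 RPKM in WT, and its widely expressed paralog Rab6a had 86.4 ± 10.7 RPKM in rd10 and 79.7 ± 14.6 RPKM in WT. The SD ranges of Rab2a, Rab6b, Rab6a and Rab1 overlapped in WT, as did those of Rab5c, Rab7 and Rab1b, so the order within each set is not firm. Rab5c and Rab1b also overlapped Rab6a and Rab1 in WT, so the order across the sets is not firm for these genes. The 10 highest genes in WT made up 64.4% of the family's summed RPKM in rd10 and 64.2% in WT. Of these 10, 9 were also among the 10 highest in rd10, and the exception was Rab28, which ranked 15 in rd10 and 10 in WT. Its WT rank is not firm, since Rab10 had 42.5 ± 5.43 RPKM in rd10 and 39.3 ± 7.52 RPKM in WT and Rab11b had 40.1 ± 4.65 RPKM in rd10 and 39.3 ± 8.96 RPKM in WT. With the longest transcript as the length, the same 10 genes led in WT, and Rab28 then had 33.5 RPKM in rd10 and 61.7 RPKM in WT. The authors' deposited table gives Rab30 6.5 FPKM in rd10 and 9.8 FPKM in WT, where its RPKM over the union of exons was 1.38 in rd10 and 2.098 in WT, and the lengths behind the FPKM are not known here.

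**Figure D2:**
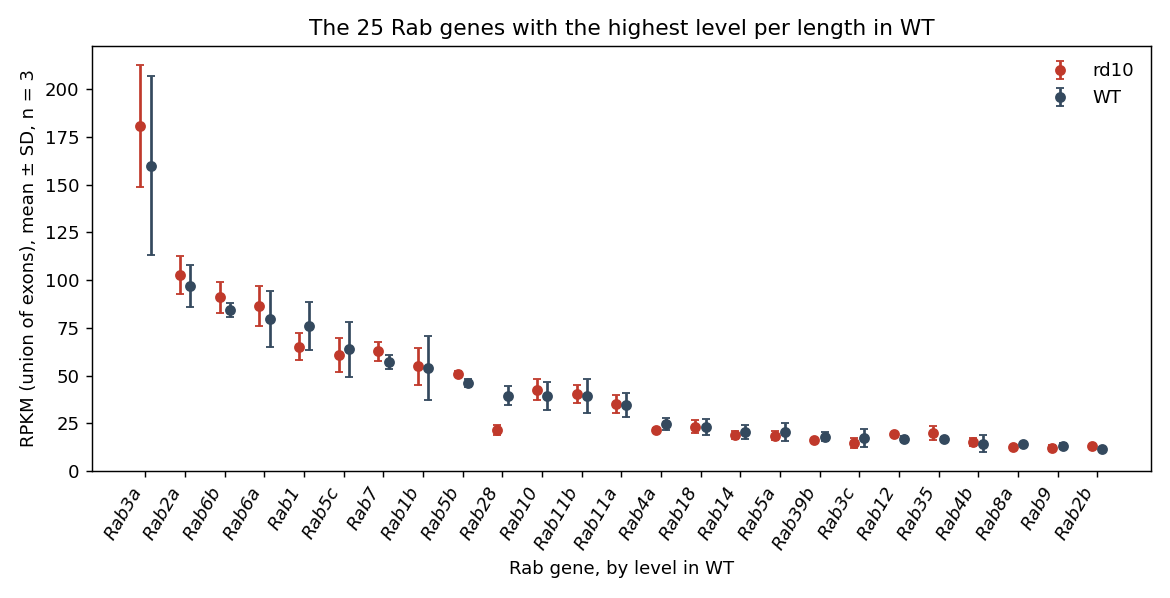
Level per length (RPKM over the union of exons, y axis, mean ± SD of 3 libraries) of the 25 Rab genes highest in WT (x axis), with rd10 in red left of WT in dark blue. Rab3a leads in both groups, and Rab28 averages 21.4 RPKM in rd10 and 39.4 RPKM in WT.

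Promoters of 3 called genes are shown because the study's question concerns DNA-binding factors, and they are a fall and a rise called under every alternative (Rab28 and Rab31) and the called gene with a match to a photoreceptor motif (Rab43). They are RefSeq's, on GRCm38.p6, the assembly of mm10, from 250 bases before to 50 after the start. They run 5′ to 3′ on the gene's own strand, and capitals mark a motif match.
Rab28 (chr5:41708130-41708429, minus strand): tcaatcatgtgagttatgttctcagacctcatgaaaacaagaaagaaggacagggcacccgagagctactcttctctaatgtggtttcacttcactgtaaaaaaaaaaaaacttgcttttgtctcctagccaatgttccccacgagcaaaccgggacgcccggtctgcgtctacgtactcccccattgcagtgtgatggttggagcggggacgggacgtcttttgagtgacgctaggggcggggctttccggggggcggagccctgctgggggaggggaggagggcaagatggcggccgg
Rab31 (chr17:65772703-65773002, minus strand): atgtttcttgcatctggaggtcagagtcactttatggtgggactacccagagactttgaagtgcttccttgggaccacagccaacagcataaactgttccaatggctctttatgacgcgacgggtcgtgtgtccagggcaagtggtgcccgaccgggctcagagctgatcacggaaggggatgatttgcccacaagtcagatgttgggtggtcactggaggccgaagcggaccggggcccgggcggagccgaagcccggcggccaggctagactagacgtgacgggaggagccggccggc
Rab43 (chr6:87812115-87812414, minus strand): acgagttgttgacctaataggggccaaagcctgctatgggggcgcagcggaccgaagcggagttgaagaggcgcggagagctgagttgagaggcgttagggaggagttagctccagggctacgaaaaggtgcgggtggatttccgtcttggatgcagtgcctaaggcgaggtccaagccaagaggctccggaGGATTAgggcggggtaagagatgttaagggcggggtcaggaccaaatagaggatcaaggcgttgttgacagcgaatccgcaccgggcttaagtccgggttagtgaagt

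Of the 57 Rab genes, 46 had at least 1 promoter in that table, 58 promoters in all, and both strands were searched for 3 motifs. They were TAATCC (a core bound by CRX and OTX2), GGAATG (bound by TEAD) and TTCNNNGAA (bound by STAT factors, the same on both strands), of which the last 2 can share letters. A match to TAATCC was found for Rab43, on the other strand as GGATTA, and for the untested Rab42, in 3 of the 58 promoters, and 7.06% of all 32851 promoters hold it. The matching promoters of Rab43 overlap and hold the same GGATTA, and its remaining promoters hold none. GGAATG was in promoters of 7 Rab genes, none of them called by edgeR, and in 14.7% of all promoters. TTCNNNGAA was in promoters of 5 Rab genes, with Rab19 the called one, and in 8.3% of all promoters. The windows of Rab28, Rab31, Rab32 and Rab3d held none of these letter strings. A match is a description of the sequence, and no factor's binding was measured.

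Among the Rabs of transport from the Golgi to the surface and the cilium, 1 of 11 tested genes was called, and it fell. That is 9.09%, where 14.4% of all genes tested were called. Rab28 encodes a divergent Rab linked to cone-rod dystrophy in humans and, in mouse cones, to the shedding of outer segment tips. It had 94.2, 86.2 and 109.7 CPM in rd10, against 154, 183 and 198 CPM in WT, in the order Rd10-3, Rd10-4, Rd10-5 and WT-1, WT-4, WT-23 that is kept for every gene. Every rd10 library was below every WT library. The log2 fold change was -0.88 ± 0.14 (SE, edgeR adjusted p = 0.00556), with a 95% interval from -1.21 to -0.56. It was past the threshold in all 18 alternatives, with log2 values between -1.12 and -0.65. The rod markers, which all fell, summed to between 24320 and 35720 CPM in rd10 and between 118300 and 138700 CPM in WT, and their part in the lower Rab28 count was not tested. Of 11 cone markers 5 rose and 1 fell, and the list summed to between 2767 and 2994 CPM in rd10 and between 1960 and 2548 CPM in WT. In the authors' deposited table Rab28 has 32.5 FPKM in rd10 and 60.1 FPKM in WT, with a log2 fold change of -0.89 and a p-value of 1.51e-07, at chromosome 5, minus strand, from 41624976 to 41708157 in mm10.

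Rab8a, which drives membrane delivery to the cilium, had 57.03, 55.97 and 62.2 CPM in rd10 and 65.6, 67.8 and 64.2 CPM in WT. The rd10 values were all below the WT values, and the difference did not pass the test (log2 fold change -0.17 ± 0.11, edgeR adjusted p = 0.315, 95% interval -0.42 to 0.072); with library size alone the sign turned (0.066). Its paralog Rab8b had a log2 fold change of 0.22 ± 0.15 (adjusted p = 0.365), and -0.020 under inner neuron scaling. With the GC trend removed, Rab8b had 0.35 (edgeR adjusted p = 0.0171). Within each library, the log2 ratio of Rab8b to Rab8a per length was -0.87, -1.03 and -1.07 in rd10 and -1.65, -1.38 and -1.16 in WT, so Rab8b stood nearer to Rab8a in every rd10 library than in any WT library. The margin was narrow, from -1.07 in Rd10-5 to -1.16 in WT-23. Transcript GC content differs between Rab8b (40.6%) and Rab8a (49.4%), and its part in these ratios was not tested. Such ratios are descriptions, with no test. Of 13 pairs of related Rab genes, 5 had a higher ratio in every rd10 library (Rab31 to Rab22a, Rab32 to Rab38, Rab3d to Rab3a, Rab27b to Rab27a and Rab8b to Rab8a). The ratios of the other 8 overlapped, with differences of rd10 minus WT from -0.43 to 0.34, among them Rab6b to Rab6a, Rab11b to Rab11a and Rab5c to Rab5a. The pairs were chosen by hand. Rab31, Rab32 and Rab3d are called genes set over uncalled relatives, so the higher ratios of these pairs repeat their calls. The fallen Rab28, Rab43 and Rab30 are in no pair, so the balance of directions among pairs is no result. The share of such pairs among other genes was not computed. Rab10, a Rab of exocytic and ciliary transport, had 162, 128 and 159 CPM in rd10 and 111, 139 and 164 CPM in WT, which overlap. Rab13, a Rab of junctional traffic, and Rab36 were higher in every rd10 library but missed the threshold, with log2 fold changes of 0.52 ± 0.18 and 0.53 ± 0.20 (edgeR adjusted p = 0.0884 and 0.123).

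Among the Rabs of the endoplasmic reticulum and Golgi, 2 of 14 tested genes fell and 1 rose. This was 21.4% called, against 14.4% of all genes, and no test compared the shares. Rab43, which acts in transport to and through the Golgi, had 20.6, 25.2 and 22.8 CPM in rd10 and 46.5, 38.8 and 30.5 CPM in WT. Its groups did not overlap, with the wider spread in WT (log2 fold change -0.76 ± 0.18, edgeR adjusted p = 0.0263). Of its exon bases, 75.35% are shared with Gm45140, an annotated protein coding gene on the same strand that has no row of its own in the count table, so its count may hold reads of both. It was no longer called when WT-4, Rd10-3 or Rd10-5 was left out (adjusted p = 0.102, 0.126 and 0.085), with library size alone (0.0619) and against a fold of 1.2 (0.0625).

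Rab30, a Rab of the Golgi stacks, had 14.4, 12.2 and 13.3 CPM in rd10, against 18.6, 18.6 and 23.5 CPM in WT. Again every rd10 library was lower (log2 fold change -0.61 ± 0.16, edgeR adjusted p = 0.0368). Its call was lost when any library other than WT-1 was left out (adjusted p from 0.0906 to 0.122), under upper quartile scaling (0.0624), with library size alone (0.145) and against a fold of 1.2 (0.102). Rab19, a little studied Golgi Rab, rose at a very low level, with 21, 17 and 13 counts in rd10, against 5, 8 and 4 counts in WT. All rd10 libraries were above the WT libraries (log2 fold change 1.69 ± 0.39, adjusted p = 0.0248). Leaving out WT-4, WT-23, Rd10-3 or Rd10-4 ended its call (adjusted p = 0.0527, 0.0681, 0.113 and 0.0804).

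The abundant Golgi Rabs were not called. Rab6b had 498, 415 and 459 CPM in rd10 and 407, 420.1 and 443 CPM in WT, and Rab6a had 352, 277 and 338 CPM in rd10 and 239.8, 303 and 349 CPM in WT. The groups overlapped for both, with 95% intervals of the log2 fold change from -0.14 to 0.37 for Rab6b and from -0.26 to 0.49 for Rab6a. Of the exon bases of Rab6a, 18.99% lie opposite those of Mrpl48, and 25.57% of those of Rab20 lie opposite a noncoding RNA gene, so reads could be shared if strand was not used in counting. The same holds for Rab24, with 62.43% opposite Prelid1, and Rab2b, with 59.31% opposite Gm43766. Rab4b shares 64.97% with Gm21983, a protein coding gene on the same strand without a row of its own, so its count may hold reads of both. The annotation also names processed pseudogenes of Rab5a, Rab7, Rab9b and Rab11b, whose counts are uncertain to that extent.

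**Figure D3:**
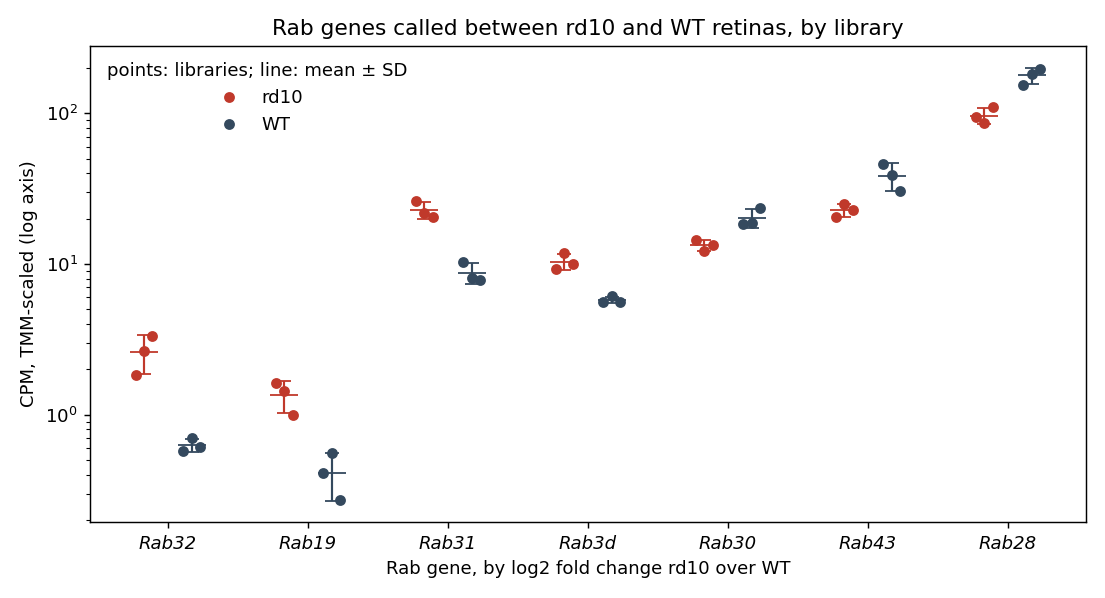
CPM (log axis) of the 7 called Rab genes in each of 3 rd10 (red, left) and 3 WT (dark blue, right) libraries, with the mean and SD as lines. Rab32, Rab19, Rab31 and Rab3d lie higher in every rd10 library and Rab30, Rab43 and Rab28 lower, and Rab28 has the highest level of the 7.

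For the Rabs of early endosomes, 1 of 7 tested genes was called (14.3%, against 14.4% of all genes). Rab31, which carries cargo between the trans-Golgi network and endosomes, had 26.3, 21.8 and 20.5 CPM in rd10 and 10.3, 8.08 and 7.87 CPM in WT. The lowest rd10 library lay well above the highest WT library. The log2 fold change was 1.39 ± 0.17 (SE, n = 3 per group, edgeR adjusted p = 0.00189), a 2.62-fold rise, and it was past the threshold in all 18 alternatives, between 1.16 and 1.63. Its close relative Rab22a, an early endosome Rab, had 21.9, 17.4 and 22.2 CPM in rd10 and 23.3, 23.5 and 25.5 CPM in WT and was not called (log2 fold change -0.23 ± 0.14, adjusted p = 0.312). Within libraries the log2 ratio of Rab31 to Rab22a per length was 1.18, 1.25 and 0.81 in rd10 and -0.26, -0.63 and -0.78 in WT, so Rab31 was the higher of the pair in each rd10 library and the lower in each WT library. The authors' deposited table gives Rab31 8.3 FPKM in rd10, 3.2 FPKM in WT and a log2 fold change of 1.39, on chromosome 17, minus strand, from 65651726 to 65772752.

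Rab5a, Rab5b and Rab5c, the central Rabs of early endosome fusion, were not called, with log2 fold changes of -0.14 ± 0.19, 0.14 ± 0.099 and -0.068 ± 0.18. Rab5b had 219, 208 and 216 CPM in rd10 and 186, 194 and 202 CPM in WT, higher in every rd10 library by a small margin (edgeR adjusted p = 0.375). Its sign turned under inner neuron scaling (-0.094), and with library size alone it was called higher (0.38, edgeR adjusted p = 0.039). Rab5c varied more and overlapped, with 129, 155 and 117 CPM in rd10 and 174, 134 and 111 CPM in WT. Rab20, a Rab of endosomes and phagosomes, had 21, 22 and 24 counts in rd10, against 13, 10 and 5 counts in WT. It lay just outside the threshold (log2 fold change 1.36 ± 0.39, adjusted p = 0.0534) and passed it in 7 of the 17 alternatives that gave a value.

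Of the Rabs of late endosomes and lysosomes, 1 of 6 tested genes was called (16.7%, against 14.4% of all genes). Rab32, which with Rab38 serves lysosome-related organelles such as melanosomes, had 24, 31 and 44 counts in rd10, against 7, 10 and 9 counts in WT. All rd10 libraries were above the WT libraries, by a log2 fold change of 2.04 ± 0.33 (edgeR adjusted p = 0.00549), the largest among the tested Rab genes. It was past the threshold in all 17 alternatives that gave a value, between 1.81 and 2.27. Its paralog Rab38 had 29, 21 and 34 counts in rd10 and 21, 19 and 29 counts in WT, which overlap once scaled (log2 fold change 0.40 ± 0.27, adjusted p = 0.362). The log2 ratio of Rab32 to Rab38 per length was -0.84, -0.0068 and -0.20 in rd10 and -2.15, -1.49 and -2.26 in WT, higher in every rd10 library. Rab7, the main Rab of late endosomes, had 176, 151 and 164 CPM in rd10 and 139, 151 and 158 CPM in WT (log2 fold change 0.13 ± 0.11, adjusted p = 0.465). Rab9, of transport from late endosomes to the Golgi, had 23.2, 18.3 and 22.5 CPM in rd10 and 20.2, 23.7 and 25.4 CPM in WT, and the groups overlapped for both.

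Several marker lists of other cells also differed between the groups. The 15 microglia and macrophage markers, none of them at 0 in any library, summed to between 404 and 523 CPM in rd10 and between 124 and 141 CPM in WT, with log2 fold changes from 1.23 to 2.56. All 10 reactive glia markers rose as well and summed to between 908 and 1186 CPM in rd10 and between 112 and 175 CPM in WT. Of 12 Müller glia markers 9 rose, and the list summed to between 13090 and 16090 CPM in rd10 and between 8272 and 9391 CPM in WT. Of 12 bipolar cell markers 5 rose and 1 fell (Lrit3, log2 fold change -0.92), with sums between 2625 and 2734 CPM in rd10 and between 2081 and 2367 CPM in WT. Of 10 ganglion cell markers 1 rose. Of 9 vascular markers 1 rose, Kdr, with a mean of 551.1 CPM in rd10 and 290.3 CPM in WT. The other 8 were not called, with log2 fold changes from -0.17 (Pecam1) to 0.53 (Pdgfrb). Vascular sums, with Kdr, were between 779 and 844 CPM in rd10 and between 483 and 537 CPM in WT. Of 10 tested pigment epithelium and melanocyte markers, 3 fell (Rpe65, Rgr and Lrat) and 0 rose by edgeR, with 0 higher at an unadjusted p under 0.05 and by DESeq2 or limma voom. They summed to between 249.9 and 407 CPM in rd10 and between 388 and 417 CPM in WT. The part of these cells in the higher counts of Rab31, Rab32, Rab3d and Rab19 was not tested.

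Of the Rabs of regulated exocytosis, 1 of 8 tested genes rose and 7 were not called (12.5% called, against 14.4% of all genes). Rab3d, the Rab3 of secretory granules in gland and mast cells, had 9.29, 11.8 and 10.04 CPM in rd10, against 5.64, 6.13 and 5.63 CPM in WT. The groups did not overlap (log2 fold change 0.84 ± 0.17, edgeR adjusted p = 0.015), though the call was lost without WT-4 (adjusted p = 0.0551) or Rd10-4 (0.062). Rab3a, far more abundant, had 393, 477 and 337 CPM in rd10 and 465, 347 and 257 CPM in WT. These overlapped widely (log2 fold change 0.18 ± 0.22, 95% interval -0.34 to 0.69). Rab3c, another neuronal Rab3, had 178, 143 and 209 CPM in rd10 and 167, 188 and 275 CPM in WT (log2 fold change -0.25 ± 0.21, adjusted p = 0.475), again overlapping. Rab3b was higher in each rd10 library but missed the threshold (0.53 ± 0.22, adjusted p = 0.143).

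Rab27a, which moves melanosomes and secretory granules, had 9.21, 8.43 and 7.30 CPM in rd10 and 10.2, 10.2 and 10.7 CPM in WT. Each rd10 value was lower, without passing the test (log2 fold change -0.32 ± 0.16, edgeR adjusted p = 0.221). Rab27a passed in 1 of 18 alternatives, inner neuron scaling (-0.56, edgeR adjusted p = 0.0477). Its paralog Rab27b had the opposite sign, with a log2 fold change of 0.21 ± 0.15 (adjusted p = 0.398), and -0.037 under inner neuron scaling. With the GC trend removed, Rab27b had 0.34 (edgeR adjusted p = 0.0146). The log2 ratio of Rab27b to Rab27a per length was 1.01, 0.92 and 1.33 in rd10 and 0.29, 0.68 and 0.67 in WT, higher in each rd10 library. Transcript GC content differs here too (37.9% for Rab27b and 47% for Rab27a), and its part in the ratios was not tested. Rab37, a Rab of secretory granules, had 55, 47 and 41 counts in rd10 and 79, 104 and 76 counts in WT and lay outside the threshold (log2 fold change -0.73 ± 0.22, adjusted p = 0.0624).

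No recycling endosome Rab was called among 7 tested by edgeR, where 14.4% of all genes tested were called. At an unadjusted p under 0.05 there were 0, and DESeq2 and limma voom called 0 as well. Library size alone called 1, where it called 21.9% of all genes. The log2 fold changes ran from -0.18 to 0.26. Rab11a, of recycling endosomes and rhodopsin carriers, had 109.8, 89.9 and 116 CPM in rd10 and 84.6, 105 and 122 CPM in WT. Its log2 fold change was 0.015 ± 0.16, with a 95% interval from -0.36 to 0.39. Rab11b, its paralog enriched in brain, had 239.9, 277 and 221 CPM in rd10 and 296, 239 and 186 CPM in WT. Rab14, of the route between Golgi and endosomes, had 272, 222 and 277 CPM in rd10 and 222, 287 and 324 CPM in WT. The groups overlapped for all 7 genes.

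Libraries, also those of 1 group, differed in how their counts followed base composition. Over the 53 tested Rab genes, whose longest transcripts had between 36.8% and 59.5% GC, each gene's deviation from its mean over the 6 libraries was set against GC content. Such a deviation also holds any difference between the groups. Spearman's rho was -0.039 in Rd10-3, 0.56 in Rd10-4 and -0.25 in Rd10-5. Among the WT libraries it was 0.53 for WT-1, -0.25 for WT-4 and -0.76 for WT-23. The trend was one of whole libraries: over all tested genes rho was -0.096, 0.55 and -0.26 in the rd10 libraries and 0.55, -0.25 and -0.60 in the WT libraries. It is a description over genes that share a library, with no test. Rab3a, at 55.0% GC, was highest among WT libraries in WT-1 and lowest in WT-23, and Rab3c, at 41.9% GC, was lowest in WT-1 and highest in WT-23. With this trend removed from each library, 17 of the 53 Rab genes were called, 12 higher and 5 lower, where 33.7% of all genes tested that way were called. All 7 genes called without that step were among them, and the others were Rab12, Rab13, Rab20, Rab27b, Rab33b, Rab36, Rab3b and Rab8b (higher) and Rab37 and Rab40c (lower). Without both WT-1 and Rd10-4, 7 Rab genes were called, 6 of them shared, with Rab20 added and Rab19 lost (adjusted p = 0.063). Of all genes tested in that fit, 19.2% were called.

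**Figure D4:**
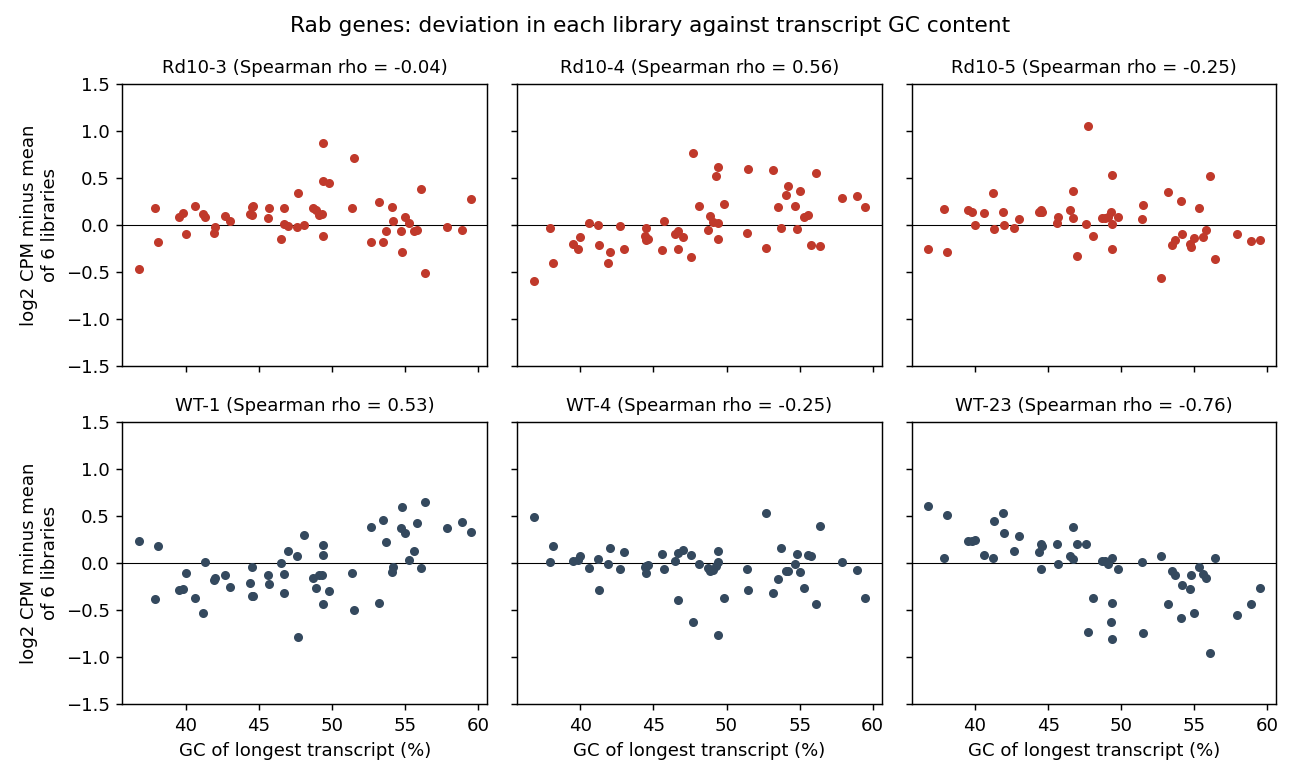
Deviation of each tested Rab gene's log2 CPM from its mean over 6 libraries (y axis) against the GC content of its longest transcript (x axis, %), with the rd10 libraries above the WT libraries. The points climb with GC in Rd10-4 and WT-1 and descend in WT-23, where rho was -0.76.

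Partner genes of the Rab cycle were called about as often as other genes, with 4 of 117 tested higher and 10 lower (12%, against 14.4% of all genes). The 126 partners found in the count table are prenylation and GDP dissociation inhibitor genes, exchange factors, GTPase-activating proteins and effectors. Of the 7 prenylation and inhibitor genes, 0 were called by edgeR, DESeq2 or limma voom, 1 had an unadjusted p under 0.05, and 1 was called with library size alone and 3 with the GC trend removed, all higher. Gdi2, a widely expressed GDP dissociation inhibitor, had 554, 448 and 531 CPM in rd10 and 378, 466 and 482 CPM in WT, which overlap (log2 fold change 0.21 ± 0.14, edgeR adjusted p = 0.351). Chm, the choroideremia gene whose product escorts new Rabs to prenylation, had 55.3, 47.4 and 62.9 CPM in rd10 and 43.8, 52.5 and 60.01 CPM in WT, again overlapping (0.082 ± 0.16, adjusted p = 0.772).

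Among 28 tested exchange factor genes, 2 fell by edgeR, and 0 rose by edgeR, DESeq2 or limma voom, with 2 higher at an unadjusted p under 0.05. The called share was 7.14%, against 14.4% of all genes by edgeR, with 7.12% higher and 7.32% lower. Library size alone called 2 higher and removal of the GC trend 3. Rabgef1, which activates Rab5, had 42.1, 46.3 and 51.97 CPM in rd10, against 148, 165 and 179.6 CPM in WT. This was the largest fall among the tested partners, a log2 fold change of -1.81 ± 0.13 (edgeR adjusted p = 0.000423). Madd, an exchange factor for Rab3 and Rab27, fell by 0.52 ± 0.11 on the log2 scale (adjusted p = 0.0208), with 323 ± 16.7 CPM in rd10 and 464 ± 46.1 CPM in WT. Leaving out WT-4 or any rd10 library ended its call (adjusted p from 0.0557 to 0.115), as did library size alone (0.114) and the test against a fold of 1.2 (0.0806). Rab3ip, the exchange factor of Rab8, had 70.2, 71.99 and 64.1 CPM in rd10 and 74.7, 73.6 and 79.7 CPM in WT and was not called (adjusted p = 0.414).

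Of 38 tested genes listed as GTPase-activating proteins, 4 fell by edgeR, and 0 rose by edgeR, DESeq2 or limma voom, with 2 higher at an unadjusted p under 0.05. By edgeR 10.5% were thus called, against 14.4% of all genes, of which 7.12% were higher and 7.32% lower. Whether each listed protein acts on a Rab was not measured. Library size alone called 3 higher and removal of the GC trend 6. Usp6nl, which acts on Rab5 among others, had 59.02, 53.8 and 66.7 CPM in rd10, against 126, 127 and 142 CPM in WT (log2 fold change -1.14 ± 0.12, edgeR adjusted p = 0.00108). Tbc1d8, of the TBC family, fell by 1.15 ± 0.14, Tbc1d23, a TBC family member at the trans-Golgi network, by 0.86 ± 0.18, and Tbc1d24, a TBC family gene of synapses, by 0.63 ± 0.10 on the log2 scale. Tbc1d23 was not called once WT-4, Rd10-3 or Rd10-4 was left out (adjusted p = 0.0748, 0.0772 and 0.0557). Rabgef1 and Usp6nl act on the same GTPase in opposite ways, and the Rab5 genes themselves were not called.

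Effectors moved both ways, as all genes did, with 4 of 44 tested genes higher and 4 lower. This was 18.2% called, against 14.4% of all genes, and no test compared the shares. Optn, the gene of optineurin, a Rab8 effector, had 60.3, 55.2 and 76.9 CPM in rd10, against 169.8, 169.6 and 178 CPM in WT. Each rd10 library was far below the lowest WT library (log2 fold change -1.43 ± 0.14, edgeR adjusted p = 0.000826). Rims2, the Rab3 effector of the photoreceptor ribbon synapse, had 143, 131 and 177 CPM in rd10 and 269, 318 and 396 CPM in WT (-1.12 ± 0.18, adjusted p = 0.00492). Its relative Rims1 had the opposite sign without passing (0.40 ± 0.12, adjusted p = 0.0676). Rims1 did pass in 5 of 18 alternatives, among them DESeq2 (adjusted p = 0.0432). Bicd2, a dynein adaptor that binds Rab6, and Myrip, a Rab27a effector that links to myosins, fell by 0.95 ± 0.15 and 0.77 ± 0.12 on the log2 scale.

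The effectors that rose were Micall2, Myo5b, Erc1 and Rph3a. Myo5b, a myosin motor for Rab11 carriers, had 78.3, 73.95 and 80.6 CPM in rd10, against 39.3, 42.6 and 39.8 CPM in WT, a log2 fold change of 0.93 ± 0.11 (edgeR adjusted p = 0.00139). Micall2, a Rab8 and Rab13 effector at cell junctions, had 7.52, 9.20 and 6.70 CPM in rd10 and 2.70, 4.04 and 2.78 CPM in WT (1.29 ± 0.24, adjusted p = 0.00941). Rph3a, the Rab3 effector rabphilin, and Erc1, an active zone protein that also binds Rab6, rose by 0.44 ± 0.11 and 0.49 ± 0.12 on the log2 scale. With WT-4 or any rd10 library left out, neither was called (adjusted p from 0.0641 to 0.161 for Rph3a and from 0.0523 to 0.161 for Erc1), and Rph3a was also lost without WT-23 (0.0694). With inner neuron scaling they were lost too (adjusted p = 0.242 and 0.259), as against a fold of 1.2 (0.167 and 0.126). The fall of rod markers and the rise of glial markers given above stand beside all partner results, and their part in them was not tested.

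**Figure D5:**
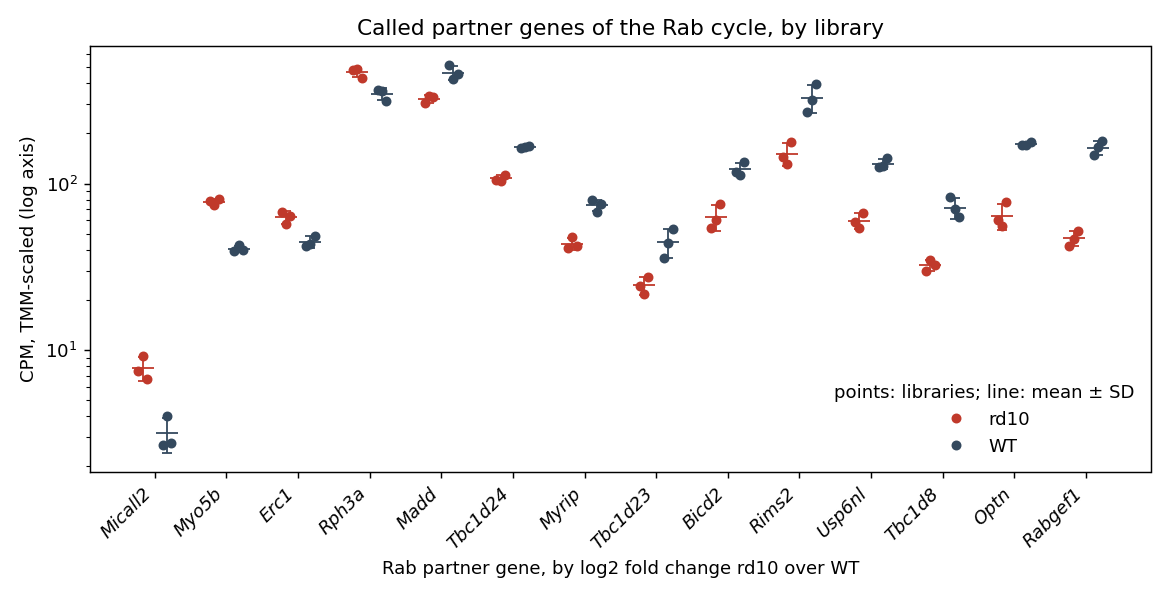
CPM (log axis) of the 14 called partner genes in each of 3 rd10 (red, left) and 3 WT (dark blue, right) libraries, with the mean and SD as lines. Micall2, Myo5b, Erc1 and Rph3a lie higher in rd10, and the other 10 lie lower in every rd10 library.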

How the data were processed

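RNA of whole retinas was sequenced from libraries that keep strand, per the labels' protocols. The submitters' processing notes name TopHat2 2.1.0, HTSeq, edgeR and mm10, with no role or order. The annotation and the strand setting of the counting were not given in the sources used here. Whole-number counts per gene, not normalized, were deposited by the authors. They also deposited a gene table that holds, per the file headers, an FPKM per group, a log2 fold change and a p-value, used as they stand. The columns' numbers match none of the titles' replicates, so each column was placed in a group by its name.

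Counts were filtered with filterByExpr, scaled by TMM (factors from 1.08 to 1.10 in rd10 and from 0.902 to 0.933 in WT) and fitted in R 4.3.3 with edgeR 4.0.16 (robust quasi-likelihood, genotype alone). Lengths and GC content came from GENCODE M21 (GRCm38), to which all 57 Rab genes matched. Pairs of libraries within a group differed by 7.36 to 57.8 in chi-square per degree of freedom and were kept as separate samples. Library totals ran from 10923556 to 15818918 counts, and the log2 fold changes of Rab genes had a median SE of 0.167. Values per library were set by rule for the called Rab genes, the 2 most abundant of each role and 8 given by name. Every called partner and 7 given by name were included as well, 1 of which is not reported here. Any other gene was picked after its values were seen. Members and lists were chosen with earlier results of these data known.

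In simulated data with 200 of 13905 genes changed and 13795 tested, 5.97% of 67 genes at 1.5-fold, 61.2% of 67 at 2-fold and 98.4% of 63 at 4-fold were recovered, with 13 false among 120 calls. The real fit called 2008 genes, so adjustment over all genes was stricter in the simulation. Its counts were also drawn for each gene independently, without the GC trend of the libraries. The recovered shares therefore need not hold for the real data. Alternatives were other scalings and filters, DESeq2 1.42.0, limma 3.58.1 with voom, a test against a fold of 1.2, removal of the GC trend and fits with libraries left out.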

Additional observations from a re-analysis of the deposited data

How the results depend on the processing

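Of the 7 called Rab genes, 3 (Rab28, Rab31 and Rab32) were past the threshold in every alternative that gave a value, and 0 changed sign. Of the 46 not called, 14 passed in at least 1 alternative. The number of Rab genes called was 7 with TMM, 14 with library size alone (13 higher and 1 lower), 10 for inner neuron factors (4 higher and 6 lower), 17 with the GC trend removed and from 3 to 8 with 1 library left out (3 without WT-4, 4 without Rd10-3 and 4 without Rd10-4). For partners it was 14 with TMM, 22 with library size alone, 23 for inner neuron factors (set on ganglion, amacrine and bipolar cell genes), 39 with the GC trend removed and from 10 to 23 with 1 library left out (23 without WT-1). Over all genes it was 2008 with TMM, 3043 with library size alone, 3153 for inner neuron factors, 1285 against a fold of 1.2, 4654 with the GC trend removed and from 885 to 3214 with 1 library left out (3214 without WT-1, and 952, 885, 1227 and 1317 where WT-4, Rd10-3, Rd10-4 and Rd10-5 were dropped in turn). Calls higher in rd10 made up 49.3% under TMM, 63.3% under upper quartile, 81.2% under library size alone and 20.8% under inner neuron factors. The median of all genes moved against TMM by 0.24 for library size alone and by -0.231 for inner neuron factors. The log2 ratio of the summed Rab level, close to 0 under TMM, was 0.093 under upper quartile, 0.24 under library size alone and -0.24 under inner neuron factors. The cause of these changes was not tested beyond the shift each scaling makes. Signs changed only for genes called in neither fit of a pair. These were 21 Rab genes under inner neuron factors, 13 under library size alone, 3 under upper quartile, 1 with the GC trend removed and 3 without both WT-1 and Rd10-4, a setting chosen after seeing the data. The genes named by rule among them, with partners, were under inner neuron factors Rab5b (-0.094), Rab6b (-0.13), Rab6a (-0.13), Rab3a (-0.042), Rab7 (-0.10), Rab10 (-0.13), Rab11b (-0.19), Rab11a (-0.23), Gdi2 (-0.033) and Chm (-0.16); under library size alone Rab5c (0.18), Rab9 (0.12), Rab8a (0.066), Rab14 (0.13) and Rab3ip (0.096); under upper quartile Rab5c (0.027); and without both libraries Rab11a (-0.016). With 1 library left out, the log2 fold change of such genes ran from -0.030 to 0.21 for Chm, from -0.022 to 0.27 for Rab10, from -0.12 to 0.17 for Rab11a, from -0.098 to 0.21 for Rab11b, from -0.25 to 0.033 for Rab14, from -0.39 to 0.013 for Rab3c, from -0.19 to 0.12 for Rab5c and from -0.019 to 0.26 for Rab6a. No paired analysis was possible because the columns carry no replicate number of the titles. Rab19, Rab20 and Rab32 rest on few counts.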
